A study of Mus musculus with 6 samples.

Results

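Cytosolic ribosomal protein genes encode the protein parts of the ribosome that translates nuclear mRNA. Members were the protein-coding mouse genes whose GENCODE symbols are Rpl or Rps followed by a number, with at most one of the letters a, x, y or l and an optional further digit, together with Rplp0, Rplp1, Rplp2 and Rpsa. This rule found 83 of the 43629 genes in the table, of which 51 belong to the large subunit and 32 to the small subunit. Enough reads were counted for 80 of them to be tested, 48 of the large subunit and 32 of the small subunit. The untested members were the paralogs Rpl3l, Rpl10l and Rpl39l, which are described below.

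Each ribosomal protein is needed in about one copy per ribosome, and in mammals their mRNAs begin with a pyrimidine tract (a terminal oligopyrimidine motif, TOP) through which mTORC1 and LARP1 control their translation and stability. A few members have a paralog that can replace them in some ribosomes or tissues. Ribosomal protein genes also have many processed pseudogenes, copies made from their mRNAs, so short reads from these genes cannot always be placed.

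The libraries held poly-A RNA of M1, a mouse neuroblastoma cell line, in 2 groups of 3. The first group, shIGF2BP1, is labelled as an IGF2BP1 knockdown and carried a short hairpin RNA against IGF2BP1. The second, shNT, is labelled wild type and carried a non-targeting hairpin. Hairpins were induced in both groups with doxycycline at 4 to 6 µg/ml for 6 days, so the controls had received the drug too. All libraries came from a single cell line and the labels name 1 hairpin per group, so the hairpin's effect and any further difference between the cell populations cannot be told apart. Nothing in the labels says that replicates were separate cultures, and p-values therefore rest on a spread between samples that may be only technical.

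Igf2bp1 mRNA did not separate the groups. Its normalised level was 2.55, 0.992 and 11.3 CPM (counts scaled to library size) in the libraries labelled shIGF2BP1, against 1.25, 5.13 and 6.08 CPM in shNT libraries. The groups overlapped, and the log2 fold change was 0.25 ± 0.79 (SE; edgeR adjusted p = 0.966). Directions below therefore compare libraries by their labels. Library totals ran from 25119655 to 34014482 counts in shIGF2BP1 and from 30756389 to 35373076 counts in shNT. Of 10 sympathetic neuroblastoma markers, 5 were tested and edgeR called 0. Hand2 was the most abundant at 428 to 457 CPM in shIGF2BP1 and 257 to 479.5 CPM in shNT, with positive log2 fold changes for Ddc (2.89), Hand2 (0.40) and Mycn (0.19) and negative ones for Gata3 (-0.58) and Isl1 (-0.28). Ddc, at 0.567 to 1.56 CPM in shIGF2BP1 and 0.0605 to 0.269 CPM in shNT, did not overlap between the groups. Th, Dbh and Chga had 0 counts in all 6 libraries and Phox2a had 1 count in all, so these defining markers of the labelled tumour type were absent. Ptprc, the pan-leukocyte marker, had 1 count in all. The summed level of 4 leukocyte markers was 3.54 to 6.12 CPM in shIGF2BP1 and 7.81 to 14.9 CPM in shNT. It came mostly from Cd68, which was lower in shIGF2BP1 without overlap, while Fcer1g was higher there without overlap, at 0.364 to 0.567 CPM in shIGF2BP1 and 0 to 0.176 CPM in shNT. The part of these markers in the results was not tested.

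The sequence around the annotated start is shown for members that bear on the results, to let the pyrimidine tract be seen. Sequences are from RefSeq on GRCm38.p6, 10 bases before and 20 bases from the annotated start on, on the strand of the gene, 5′ to 3′. Capitals mark a run that begins with C at the annotated start and goes on with at least 4 further pyrimidines. The first 4 genes were chosen because they have such a run and lay close to the common pattern of the members, Rps27 because it has one and Rps27l is its paralog, and the last 4 because they departed from the pattern. Genes chosen in this way cannot show whether the run goes with the pattern, which was not tested. Rpl27, Rps23 and Rps3 also lay close to the pattern and have no such run at the RefSeq start. RefSeq and GENCODE starts can differ. The bases taken for Rpl27 (chr11:101442235-101442264) and Rpl37a lie wholly before the GENCODE gene starts, chr11:101442298 and chr1:72711290. A missing run here therefore does not show that an mRNA lacks the tract.
Rplp2, chr7:141447641-141447670, plus strand: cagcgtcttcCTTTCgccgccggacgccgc
Rps18, chr17:33955646-33955675, minus strand: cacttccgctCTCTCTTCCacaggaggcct
Rps6, chr4:86857348-86857377, minus strand: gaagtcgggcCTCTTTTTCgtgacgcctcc
Rpl35, chr2:39005112-39005141, minus strand: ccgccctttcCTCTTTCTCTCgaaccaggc
Rps27, chr3:90213629-90213658, minus strand: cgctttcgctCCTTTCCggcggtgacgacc
Rpl37a, chr1:72711250-72711279, plus strand: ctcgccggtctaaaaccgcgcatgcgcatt
Rpl7l1, chr17:46782637-46782666, minus strand: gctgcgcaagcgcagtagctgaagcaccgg
Rps27l, chr9:66946076-66946105, plus strand: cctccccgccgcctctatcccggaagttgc
Rpl22l1, chr3:28805498-28805527, plus strand: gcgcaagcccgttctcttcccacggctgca

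RefSeq promoters, from 250 bases before to 50 bases after the start, were matched for 63 of the 83 members and numbered 75, since some genes have several starts. A C at the annotated start followed by at least 4 pyrimidines was found in 13 member promoters (17.3%), against 2.51% of all 32851 promoters. CTTTCC stood on the coding strand of 28 member promoters (37.3%), against 14.1% of all promoters. CTCTTTC, which can overlap CTTTCC, stood on the coding strand of 15 member promoters (20%), against 3.99%. The ETS-type word CCGGAAG was present on either strand of 27 member promoters (36.0%), against 8.86%. The YY1-type word GCCATNTT was present on either strand of 17 (22.7%), against 6.05%. Sequences with TATAAA on the coding strand (8.0% of member promoters against 8.32% of all) and with the palindrome CACGTG, the E-box bound by MYC (10.7% against 7.15%), differed less in share. These matches describe the letters in the windows. Most RefSeq starts of members did not begin with the tract, and some of these starts differ from the GENCODE start.

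Ribosomal protein mRNA made up 5.84%, 7.38% and 5.39% of all gene counts in shIGF2BP1 libraries, against 9.63%, 6.03% and 4.80% in shNT libraries. The lowest and the highest share thus both belonged to shNT, in replicates 3 and 1, and they differed 2.01-fold. All shIGF2BP1 shares lay between them. The mean share was 6.20 ± 1.04% in shIGF2BP1 and 6.82 ± 2.51% in shNT (SD, n = 3 each), a difference of -0.618 percentage points that is smaller than the SD of either group. Without shNT replicate 1 the shNT mean was 5.41%, and the difference turned to 0.788 percentage points. Counting error is small beside this spread, since the 95% Wilson intervals of the shares were 0.0145 to 0.0209 percentage points wide and cover counting error only. The result was similar when pseudogenes with symbols named after a ribosomal protein gene were added. The shares were then 6.07%, 7.65% and 5.59% in shIGF2BP1 and 9.99%, 6.25% and 4.98% in shNT.

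**Figure D1:**
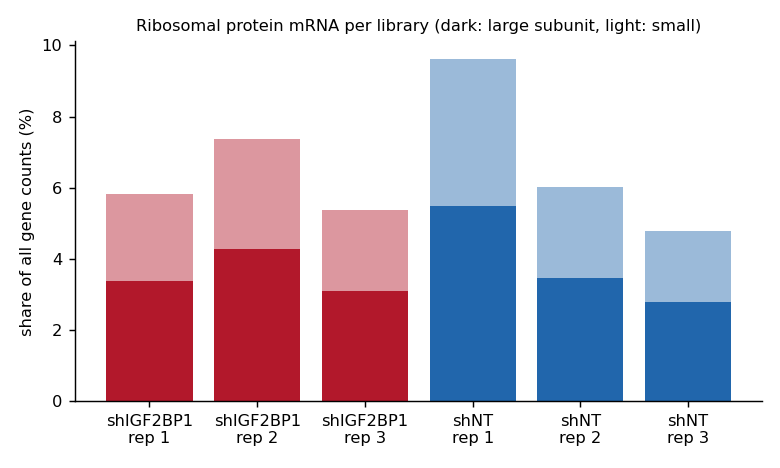
Share of all gene counts (%) held by the 83 ribosomal protein genes in each library, with the large subunit in the dark and the small subunit in the light part of each bar. The shNT libraries hold both the highest share (9.63%, replicate 1) and the lowest (4.80%, replicate 3).

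Both subunits followed this pattern. Large subunit genes held 3.37%, 4.29% and 3.11% of counts in shIGF2BP1 and 5.47%, 3.47% and 2.80% in shNT. Small subunit genes held 2.47%, 3.09% and 2.27% in shIGF2BP1 and 4.16%, 2.55% and 2.00% in shNT. Each was highest in shNT replicate 1 and lowest in shNT replicate 3, and the groups overlapped. The ratio of large to small subunit counts stayed within a narrow range, at 1.37, 1.39 and 1.37 in shIGF2BP1 and 1.32, 1.36 and 1.40 in shNT. Its mean was 1.38 ± 0.00966 in shIGF2BP1 and 1.36 ± 0.0399 in shNT (SD, n = 3 each), which is no difference beyond the spread in shNT. When members were weighted equally, the median log2 CPM of large minus small subunit genes was -0.31, -0.29 and -0.29 in shIGF2BP1 and -0.42, -0.36 and -0.41 in shNT. On that measure the groups did not overlap, by a mean difference of 0.098 on the log2 scale, while the log2 ratio of summed counts differed by 0.018. Neither was tested, and 3 against 3 libraries can give no exact permutation p below 0.1.

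Levels per length spread widely between members. The median tested member had 927 CPM per kilobase of annotated mRNA. Rps15, a small subunit protein near the decoding site, had the highest level at 3093 CPM per kilobase. Rplp1, an acidic protein of the stalk that recruits elongation factors, followed at 3014, and Rplp0, the base of that stalk, had 2255 CPM per kilobase. The large subunit proteins Rpl8, which sits near the peptidyl transferase centre, Rpl4, which lines the exit tunnel, Rpl32 and Rpl13a had 2461, 2030, 2070 and 1964 CPM per kilobase in that order. Rps9, which binds the small subunit rRNA early in assembly, had 1867 CPM per kilobase. At the other end, Rpl7l1 had 42.8, Rpl24 54.4, Rpl22l1 61.3 and Rpl17 71.3 CPM per kilobase. For Rpl24 and Rpl17, 81.6% and 78.6% of read-length windows of the mRNA also occurred in transcripts of other genes, and the part of read placement in their levels was not tested.

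All 8 of these abundant members were highest in shNT replicate 1. Of the 8, 4 (Rps15, Rpl8, Rpl32 and Rps9) were lowest in shNT replicate 3, and 4 (Rplp0, Rplp1, Rpl4 and Rpl13a) were lowest in a shIGF2BP1 library. Rps15 had 1354, 1809 and 1320.4 CPM in shIGF2BP1 and 2305, 1398 and 1093 CPM in shNT. Rplp0 had 2447, 3228 and 2483 CPM in shIGF2BP1 and 4517, 3089 and 2606 CPM in shNT. In both genes shNT replicate 1 was the highest library and the groups overlapped. Rpl8, whose mRNA shares only 7.51% of its windows with other transcripts, had 1881, 2165 and 2129 CPM in shIGF2BP1 and 2889, 1884 and 1619 CPM in shNT. Its order of libraries in shNT was the same, and its log2 fold change was -0.05 ± 0.30 (SE; edgeR adjusted p = 0.983). Rps14, a small subunit protein of the mRNA exit side, had 865, 1093 and 768 CPM in shIGF2BP1 and 1376, 810.2 and 649 CPM in shNT, again with both extremes in shNT. It lies outside the rule for named genes and was chosen after its values were seen.

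Set against their own means over the 6 libraries, the members moved together. The median deviation of the 80 tested members, in log2 CPM, was -0.17, 0.19 and -0.24 in shIGF2BP1 and 0.66, -0.02 and -0.38 in shNT. The corresponding median over all 13445 tested genes stayed within 0.012 of 0 in each library. In shNT replicate 1, 79 of 80 members lay above their own mean, and in shNT replicate 3, 78 of 80 lay below it. In shIGF2BP1 the members above their own mean numbered 5, 74 and 4 in replicates 1, 2 and 3. Of the 80 members, 78 had their highest value in shNT replicate 1 and 61 had their lowest in shNT replicate 3. Without the tested paralogs Rpl7l1, Rpl22l1 and Rps27l, all 77 members were above their mean in shNT replicate 1 and all 77 were below it in shNT replicate 3.

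The spread between members within a library was small beside these shifts. The SD over members was 0.108, 0.129 and 0.131 log2 CPM in shIGF2BP1 and 0.160, 0.109 and 0.232 log2 CPM in shNT. Over all tested genes it was 0.384, 0.459 and 0.394 in shIGF2BP1 and 0.470, 0.437 and 0.556 in shNT. These sets were not matched for abundance, since tested members averaged at least 33.8 CPM and other genes were tested from a minimum count of 10. The part of abundance in the smaller SD of the members was not tested. The median member had an SD of 0.383 log2 CPM over the 6 libraries, and 0.109 after the members' median in each library was subtracted. The library medians carried 84.1% of the members' variance over libraries. These values describe genes that share libraries, depth and scaling, and they carry no test. Large and small subunit genes shifted alike, with medians of 0.65 and 0.67 in shNT replicate 1 and of -0.40 and -0.36 in shNT replicate 3.

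**Figure D2:**
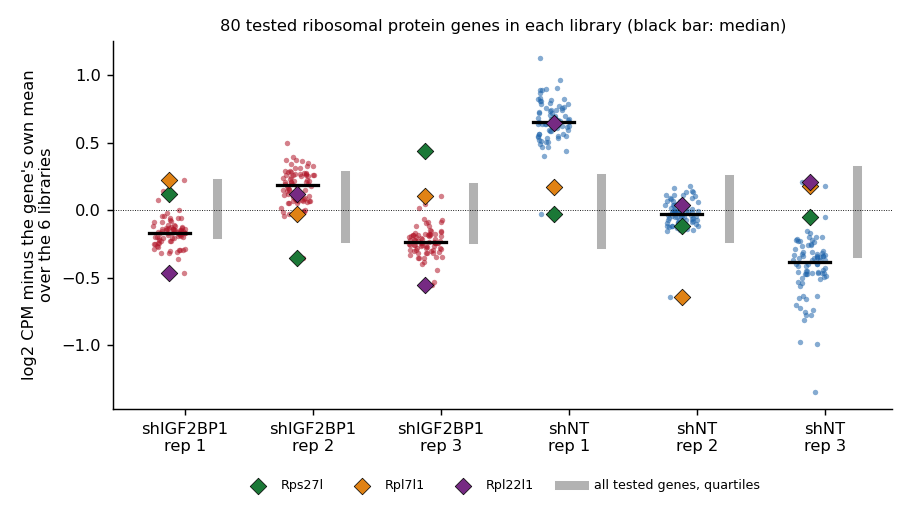
Log2 CPM of each of the 80 tested ribosomal protein genes minus its own mean over the 6 libraries (dots), with their median (black bar), 3 paralogs (diamonds) and the quartiles of all 13445 tested genes (grey). The members lie together at 0.66 in shNT replicate 1 and at -0.38 in shNT replicate 3, while Rps27l and Rpl7l1 do not follow them.

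Read sharing was examined because mRNA fragments of these genes can match pseudogenes. A median of 53.5% of the 53-base windows of a member mRNA also occurred in a GENCODE transcript of another gene, and 47 of 83 members had 50% or more shared. Only 9 members had under 10% shared, 6 of them tested, among them Rpl7l1 and Rpl8. Those 6 had median deviations of -0.13, 0.13 and -0.18 in shIGF2BP1 and of 0.63, -0.11 and -0.36 in shNT, close to those of all 80 members. Of the 6, Rps15a and Rps20 had annotated mRNAs of 5130 and 3706 bases and still shared 299 and 269 windows. Their low percentages reflect those lengths, so they are not members with few shared windows. The part of read placement in the common shift was not tested. The 251 pseudogenes with symbols named after a ribosomal protein gene held 0.230%, 0.277% and 0.208% of counts in shIGF2BP1. In shNT they held 0.357%, 0.226% and 0.181%. Pseudogenes with other symbols, such as Gm10288, which shares windows with Rpl11, were not in this sum. Relative to the member counts the 251 held 3.71% to 3.94% in every library, so these pseudogene rows moved with the members. Reads from a member and from its pseudogene cannot be told apart in the shared windows.

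Most ribosomal protein mRNAs are short, and other short mRNAs shifted in part the same way. Among genes outside the members, the 65 with mRNAs of up to 500 bases had a median deviation of 0.14, 0.16 and -0.02 log2 CPM in shIGF2BP1 and of 0.31, -0.11 and -0.32 in shNT. The 15 members of that length had -0.15, 0.21 and -0.24 in shIGF2BP1 and 0.72, -0.04 and -0.46 in shNT. The members therefore lay further out in shNT replicate 1, and in shIGF2BP1 replicate 1 they lay on the other side of 0. For mRNAs of 500 to 750 bases the medians in shNT replicates 1 and 3 were 0.66 and -0.40 for 22 members, against 0.31 and -0.19 for 230 other genes. The 2019 other genes with mRNAs over 5000 bases moved the opposite way, with -0.26 in shNT replicate 1 and 0.13 in shNT replicate 3. The part of mRNA length in the members' shift was not tested.

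**Figure D3:**
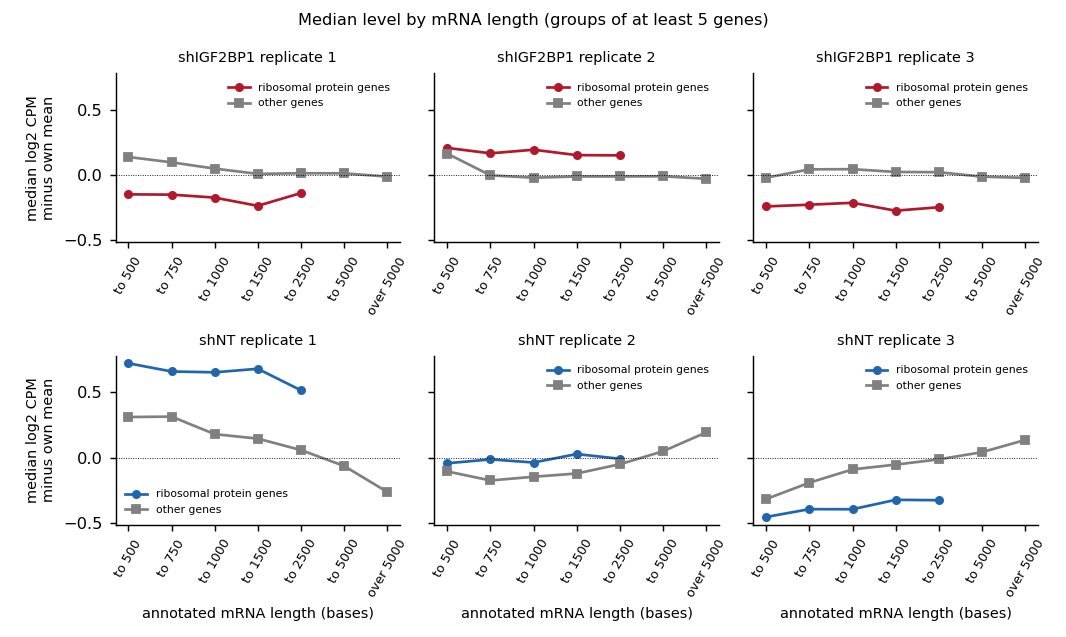
Median of log2 CPM minus the gene's own mean, by annotated mRNA length, for ribosomal protein genes (coloured circles) and other tested genes (grey squares) in each library, for groups of at least 5 genes. In shNT replicate 1 members of up to 500 bases lie at 0.72 and other genes of that length at 0.31, and in shNT replicate 3 at -0.46 and -0.32.

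The members that departed from the common shift were few. After the members' median in each library was subtracted, 71 of 80 had an SD under 0.2 log2 CPM and 9 had 0.2 or more. The 9 were Rps27l (0.53), Rpl7l1 (0.50), Rpl37a (0.50), Rpl22l1 (0.33), Rpl11 (0.32), Rpl41 (0.30), Rps4x (0.23), Rpl24 (0.23) and Rpl37 (0.21). The smallest values were those of Rpl35 (0.048), Rpl21 (0.049) and Rpl23a (0.052). Rpl37a, Rpl41, Rpl24, Rpl37, Rpl35, Rpl21 and Rpl23a are named here because of these values. In 6 of the 9, the largest departure was a low value in a single library, shNT replicate 3.

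Rpl37a, a zinc-finger protein of the large subunit, had 319.6, 364 and 268 CPM in shIGF2BP1 and 663, 317 and 119 CPM in shNT. Both the highest and the lowest library were shNT, and the range of 2.48 log2 units was wider than the shift of the members. Relative to the members' median it stood at 0.47 in shNT replicate 1 and -0.97 in shNT replicate 3. Rpl11, which with Rpl5 forms the 5S rRNA particle and can bind and inhibit MDM2, had 840.2, 969.6 and 714 CPM in shIGF2BP1 and 1185, 735 and 382 CPM in shNT. Relative to the members' median it stood at -0.61 in shNT replicate 3 and at -0.02 to 0.31 elsewhere. Rpl41, a very short basic peptide that bridges the subunits, had 485, 546 and 496 CPM in shIGF2BP1 and 833, 516 and 249 CPM in shNT. The X-linked small subunit gene Rps4x had 1243, 1606 and 1185 CPM in shIGF2BP1 and 2613, 1538 and 797 CPM in shNT. None of these genes separated the groups. Of the windows of Rpl37a, Rpl11, Rpl41 and Rps4x, 37.0%, 62.1%, 40.4% and 70.0% in that order were shared with other transcripts, and the part of read placement in these low values was not tested.

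**Figure D4:**
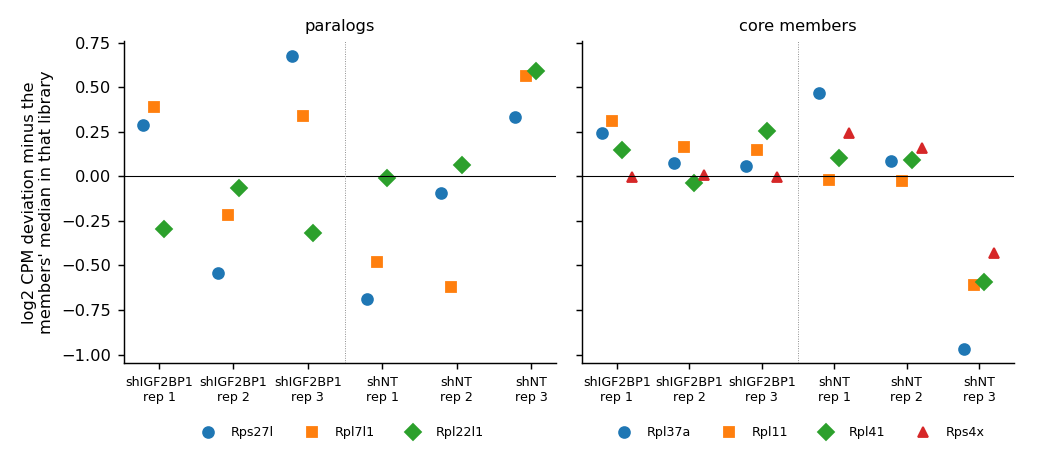
Deviation of named genes in log2 CPM after subtraction of the members' median in each library, for paralogs (left) and for core members (right). In shNT replicate 3 Rpl37a lies at -0.97, Rpl11 at -0.61, Rpl41 at -0.59 and Rps4x at -0.43, while Rpl22l1 and Rpl7l1 lie above 0.5.

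Between the groups, no member passed the test. edgeR called 0 of 80 members at an adjusted p under 0.05, where it called 0.0223% of all 13445 tested genes, all 3 of them lower in shIGF2BP1. DESeq2 and limma-voom also called 0 members. At an unadjusted p under 0.05 edgeR counted 1 member, Rpl22l1, or 1.25% of the members against 7.16% of all genes. Rpl22l1 was lower in shIGF2BP1, as were 3.99% of all genes at that p, and 0 members were higher, against 3.17% of all genes. The groups did not overlap for 0 members, while 5.59% of all tested genes were lower and 6.06% higher in shIGF2BP1 without overlap. Adjusted p-values of the members ran from 0.687 to 0.996 in edgeR, and their standard errors from 0.22 to 0.47 log2 units with a median of 0.31.

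The log2 fold change was negative in 76 of 80 members, where 51.5% of all tested genes were negative. Its median was -0.20 over the members and -0.01 over all tested genes. Since the members share the shift of each library, these signs are not independent of each other. Leaving out shNT replicate 1 turned the median to 0.15, with 68 members positive and 12 negative. Leaving out shNT replicate 3 moved it to -0.41, and without shIGF2BP1 replicate 2 it was -0.36. Only the removal of shNT replicate 1, among the 6 libraries left out in turn, turned the sign of the median.

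**Figure D5:**
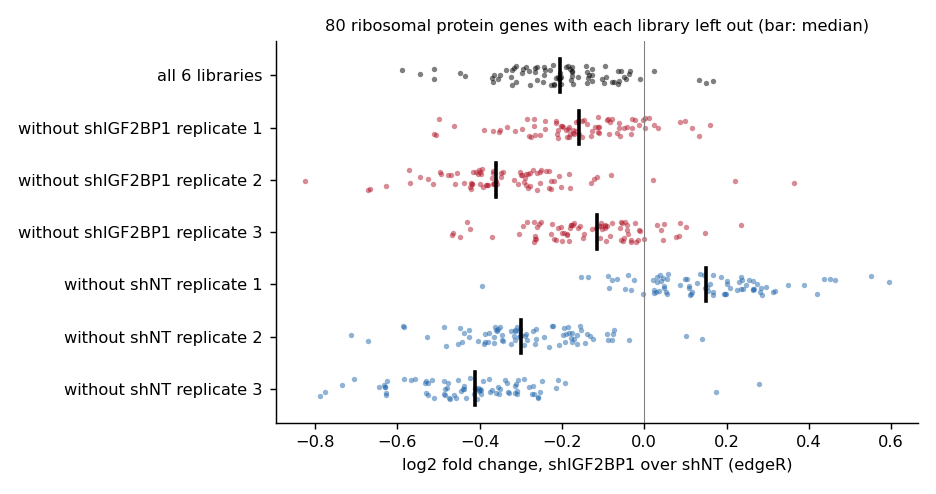
Log2 fold change (shIGF2BP1 over shNT, edgeR) of the 80 ribosomal protein genes with all 6 libraries and with each library left out, with the median as a bar. The median is -0.20 with all libraries, 0.15 without shNT replicate 1 and -0.41 without shNT replicate 3.

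Among core members, those with the smallest p-values had their distinguishing value in shNT replicate 1. Rps26, a protein of the mRNA exit channel, had 815, 1011 and 759 CPM in shIGF2BP1 and 1947, 1027 and 795 CPM in shNT. Its log2 fold change was -0.54 ± 0.34 (SE; edgeR adjusted p = 0.794), and -0.078 without shNT replicate 1. Replicate 1 of shNT stood far above, replicate 2 lay just above the shIGF2BP1 range and replicate 3 lay inside it. Rps12, a small subunit protein of the beak, had 382, 476 and 372 CPM in shIGF2BP1 and 839.7, 522 and 390.3 CPM in shNT (log2 fold change -0.51 ± 0.30, edgeR adjusted p = 0.778). Rps27, a zinc-finger protein of the small subunit, had 524, 634 and 414 CPM in shIGF2BP1 and 1124, 669.6 and 445 CPM in shNT (log2 fold change -0.51 ± 0.34, edgeR adjusted p = 0.81). In both genes shNT replicate 3 lay within the shIGF2BP1 range, and without shNT replicate 1 the log2 fold change was -0.15 for Rps12 and -0.086 for Rps27.

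The stalk protein Rplp1 had 1129, 1452 and 1238 CPM in shIGF2BP1 and 2403, 1538 and 1265 CPM in shNT, and its log2 fold change was -0.45 ± 0.30 (edgeR adjusted p = 0.815). The large subunit gene Rpl6 had 564, 656 and 589.8 CPM in shIGF2BP1 and 1201, 767 and 482 CPM in shNT, and its log2 fold change was -0.44 ± 0.32 (edgeR adjusted p = 0.836). Rpl6 thus held both its extremes in shNT. Rps27a, which is made as a fusion with ubiquitin, averaged 494 ± 48.0 CPM in shIGF2BP1 and 629 ± 215 CPM in shNT (SD, n = 3 each). Its log2 fold change was -0.35 ± 0.27 (edgeR adjusted p = 0.853). The exit tunnel protein Rpl39 averaged 206 ± 39.1 CPM in shIGF2BP1 and 265 ± 119 CPM in shNT (SD, n = 3 each), and its log2 fold change was -0.37 ± 0.31 (edgeR adjusted p = 0.867). The spread within shNT was larger than the difference of the means in both genes. Without shNT replicate 1 the log2 fold changes were -0.14 for Rplp1, -0.046 for Rpl6, -0.040 for Rps27a and 0.038 for Rpl39.

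The 4 members with a positive log2 fold change were Rps27l, Rpl7l1, Rpl11 and Rpl38. Rpl11 had 0.13 ± 0.37 (edgeR adjusted p = 0.961), and -0.19 without shNT replicate 3, its lowest library. Rpl38, whose loss in mice alters the translation of Hox mRNAs, had 479, 646 and 485 CPM in shIGF2BP1 and 798, 485 and 302 CPM in shNT. Its log2 fold change was 0.02 ± 0.33 (edgeR adjusted p = 0.993). Rpl17, which lines the tunnel exit, completed the 5 largest values with -0.01 ± 0.32 (edgeR adjusted p = 0.996). The intervals of all these genes span changes in either direction.

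The 3 tested paralogs were among the members that departed most from the common pattern. Rpl22l1, the paralog of Rpl22, lies at chr3:28805436-28807424 and had 23.5, 35.4 and 22.1 CPM in shIGF2BP1 and 51.0, 33.4 and 37.5 CPM in shNT. Replicate 2 of shIGF2BP1 exceeded replicate 2 of shNT, so the groups overlapped at that point alone. In edgeR it differed by -0.59 ± 0.26 (SE) on the log2 scale (95% interval -1.16 to -0.02), at an unadjusted p of 0.0444 and an adjusted p of 0.687. Over the alternatives listed in the closing section the value ran between -0.82 and -0.39. Of its windows 64.8% were shared, mostly with pseudogenes.

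Rpl22 itself, an RNA-binding protein of the large subunit that represses Rpl22l1 in mouse cells, had 827, 999 and 686 CPM in shIGF2BP1 and 1205, 796 and 579 CPM in shNT. The log2 ratio of Rpl22l1 to Rpl22 was -5.13, -4.82 and -4.95 in shIGF2BP1 and -4.56, -4.57 and -3.94 in shNT. The groups did not overlap. The means were -4.97 ± 0.16 in shIGF2BP1 and -4.36 ± 0.36 in shNT (SD, n = 3 each), a difference of -0.61. A two-sided exact permutation test gave p = 0.1, the smallest that 3 against 3 libraries can give, and p = 0.5 after Benjamini-Hochberg adjustment over the 5 pairs tested. Rpl22l1 made up 2.77%, 3.42% and 3.12% of the counts of the pair in shIGF2BP1 and 4.06%, 4.02% and 6.09% in shNT. Without shNT replicate 3 the difference was -0.40.

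Rps27l, a paralog of Rps27 known in human cells as a p53 target, lies at chr9:66946086-66949516. It had 96.1, 69.2 and 120.0 CPM in shIGF2BP1 and 86.9, 81.7 and 85.5 CPM in shNT, and its log2 fold change was 0.17 ± 0.22 (edgeR adjusted p = 0.918). Its shNT values were nearly level while the other members differed most there. The log2 ratio of Rps27l to Rps27 averaged -2.48 ± 0.71 in shIGF2BP1 and -3.03 ± 0.66 in shNT (SD, n = 3 each), with overlapping groups and an exact permutation p of 0.5 (0.6 adjusted). The difference of 0.56 was 0.21 without shIGF2BP1 replicate 3, 0.23 without shNT replicate 1, 0.92 without shIGF2BP1 replicate 2 and 0.89 without shNT replicate 3. Rpl7l1, a relative of Rpl7 with a role in ribosome assembly, lies at chr17:46773907-46782672. It had 128, 107 and 118 CPM in shIGF2BP1 and 124, 70.0 and 124 CPM in shNT, and the low value was in shNT replicate 2. Its log2 ratio to Rpl7 differed by 0.32 with an exact permutation p of 0.6 (0.6 adjusted), and by 0.028 without shNT replicate 2 and 0.72 without shNT replicate 3.

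Rpl36al, which the symbol rule does not take, is a paralog of Rpl36a, and sequence identity between them was not computed. Its log2 ratio to Rpl36a averaged -1.98 ± 0.13 in shIGF2BP1 and -2.24 ± 0.41 in shNT (SD, n = 3 each; exact permutation p = 0.4, 0.6 adjusted). That difference of 0.25 was 0.14 without shNT replicate 1, 0.13 without shNT replicate 2 and 0.49 without shNT replicate 3. Rps27rt, a retrotransposed copy that shares 98.6% of the windows of Rps27, kept a log2 ratio to Rps27 of -3.32 ± 0.06 in shIGF2BP1 and -3.26 ± 0.08 in shNT (SD, n = 3 each; exact permutation p = 0.2, 0.5 adjusted). With so many shared windows, counts of Rps27 and Rps27rt are uncertain. Rpl36a and Rpl36al shared 85.4% and 63.1% of their windows with other transcripts, so their counts are uncertain too. The striated muscle paralog Rpl3l had 0, 1 and 4 counts in shIGF2BP1 and 0 in each shNT library, beside 1175 ± 148 CPM of Rpl3 in shIGF2BP1 and 1469 ± 496 CPM in shNT (SD, n = 3 each). The testis paralogs Rpl10l and Rpl39l had 0 counts in all 6 libraries, which allows a level of up to 0.0851 to 0.114 CPM per library (3 counts). Their relatives Rpl10 and Rpl39 averaged 824 ± 196 and 206 ± 39.1 CPM in shIGF2BP1 and 1004 ± 438 and 265 ± 119 CPM in shNT. Rps4l, a relative of Rps4x that GENCODE annotates as a transcribed processed pseudogene, had 0, 0 and 1 counts in shIGF2BP1 and 0, 1 and 0 counts in shNT.

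Ribosomal proteins whose symbols the rule does not take moved like the members. Rack1, a scaffold on the small subunit, had 1368, 1898 and 1294 CPM in shIGF2BP1 and 2488, 1416 and 1301 CPM in shNT. Fau, made as a fusion with a ubiquitin-like protein, had 553, 730.2 and 541 CPM in shIGF2BP1 and 1041, 609 and 457 CPM in shNT. Both were highest in shNT replicate 1. Of the 5 genes in that list, 0 were called by edgeR and all 5 log2 fold changes were negative, with a median of -0.21 beside -0.01 for all genes.

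Other translation genes with TOP mRNAs shared the library pattern in part. The 20 genes of this list had median deviations of -0.01, 0.12 and -0.08 log2 CPM in shIGF2BP1 and of 0.44, 0.04 and -0.46 in shNT. They were therefore high and low in the same shNT libraries as the ribosomal protein genes. Eef1a1, the elongation factor that brings aminoacyl-tRNA to the ribosome, had 6743, 7755 and 6576 CPM in shIGF2BP1 and 13562, 8604 and 4810.4 CPM in shNT, and is named after its values were seen. edgeR called 0 of the 20, with 8 positive and 12 negative and a median of -0.09. Gas5, the host gene of small nucleolar RNAs whose spliced transcript begins with a TOP tract, had 158, 267 and 159 CPM in shIGF2BP1 and 348, 264 and 293 CPM in shNT (log2 fold change -0.63 ± 0.25, edgeR adjusted p = 0.684). Its groups overlapped through replicate 2. Eef1b2 had a log2 fold change of -0.34 ± 0.35, and the initiation factor subunits Eif3h and Eif3l had 0.31 ± 0.28 and 0.28 ± 0.26, with edgeR adjusted p from 0.881 to 0.889.

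Genes that act on TOP mRNAs did not share the pattern. The 18 tested of 19 genes of mTORC1 and the LARP1 family had medians of 0.02, -0.02 and 0.02 in shIGF2BP1 and of -0.13, 0.08 and 0.15 in shNT, low where the members were high. Their SD was 0.37 in shNT replicate 1. Other genes with mRNAs over 5000 bases had medians of -0.26 and 0.13 in shNT replicates 1 and 3. Some of the 18 are that long, such as Larp1 (6617 bases), and others are shorter, such as Rheb (1784 bases). The part of mRNA length was not tested. edgeR called 0 of the 18 genes, with 8 positive, 10 negative and a median log2 fold change of -0.06. Larp1, the protein that binds the TOP tract, had 302, 359 and 381 CPM in shIGF2BP1 and 335, 379.6 and 418 CPM in shNT, and is named for its role. Ddit4, an inhibitor of mTORC1 induced by stress, had 35.3, 34.3 and 60.8 CPM in shIGF2BP1 and 101, 62.1 and 85.5 CPM in shNT. Its groups did not overlap, and the log2 fold change was -0.93 ± 0.28 (edgeR adjusted p = 0.524). Akt1s1, the mTORC1 inhibitor PRAS40, Larp4 and Tsc2, which restrains mTORC1 through Rheb, had log2 fold changes of -0.42 ± 0.20, -0.32 ± 0.23 and 0.26 ± 0.19, none of which passed the edgeR test. Rps6kb2, a ribosomal protein S6 kinase, was not tested.

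Mitochondrial ribosomal proteins are encoded by separate nuclear genes and served as a contrast. The 75 tested of 77 had medians of 0.07, -0.05 and 0.09 in shIGF2BP1 and of 0.14, -0.19 and 0.02 in shNT, with no low value in shNT replicate 3. edgeR called 0, with 42 positive, 33 negative and a median log2 fold change of 0.04. The smallest p-values in that list belonged to Mrpl10, Mrpl41, Mrpl46 and Mrpl9, with log2 fold changes of 0.49 ± 0.22, 0.55 ± 0.25, 0.54 ± 0.24 and -0.41 ± 0.20 and edgeR adjusted p from 0.687 to 0.745. Cytosolic and mitochondrial ribosomal protein genes thus had unlike medians in shNT replicate 1, at 0.66 and 0.14.

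Factors that handle free ribosomal proteins or stalled ribosomes showed no called change. Of 7 dedicated chaperones, edgeR called 0, with 5 positive, 2 negative and a median of 0.27, which was -0.0087 without shNT replicate 2. Tsr2, the chaperone of Rps26, had 38.6, 30.6 and 45.1 CPM in shIGF2BP1 and 63.6, 49.8 and 91.2 CPM in shNT. Its groups did not overlap, and its log2 fold change was -0.84 ± 0.26 (edgeR adjusted p = 0.537). Bccip, whose yeast relative is a chaperone of Rpl23, Aamp, whose yeast relative is a chaperone of Rpl10, and Pdcd2l had log2 fold changes of 0.41 ± 0.22, 0.47 ± 0.30 and 0.27 ± 0.21. Of 14 ubiquitination and quality control genes edgeR called 0, with 6 positive, 8 negative and a median of -0.04. Ube2o, the enzyme that marks unassembled ribosomal proteins for degradation, had 220.4, 235 and 233 CPM in shIGF2BP1 and 152, 178 and 122 CPM in shNT. Its groups did not overlap either, and the log2 fold change was 0.61 ± 0.20 (edgeR adjusted p = 0.602). Nemf, Pelo and Rnf10, which act at stalled ribosomes, had log2 fold changes of 0.26 ± 0.20, 0.30 ± 0.24 and -0.23 ± 0.21.

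Myc, a transcription factor known to raise ribosomal protein gene transcription, is named after its values were seen. It had 3.16, 6.86 and 8.67 CPM in shIGF2BP1 and 6.03, 10.9 and 121 CPM in shNT. Its high library, shNT replicate 3, was the one in which 61 of 80 ribosomal protein genes were lowest, and Mycn, its neuroblastoma relative, had 44.2, 50.7 and 39.0 CPM in shIGF2BP1 and 51.7, 31.5 and 34.2 CPM in shNT. Their part in the levels of the ribosomal protein genes was not tested. Mitochondrially encoded transcripts held 3.35%, 3.69% and 2.52% of counts in shIGF2BP1 and 3.15%, 2.21% and 2.36% in shNT, in an order of libraries unlike that of the ribosomal protein share.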

How the data were processed

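The deposited table holds whole-number read counts per gene for 6 libraries, not normalised, and the tools in the submitters' processing notes are HISAT2 2.1.0, HTSeq and bcl2fastq, with GRCm38 as the build. For annotation release, strand setting and reads with several matches, nothing is stated in the sources used here, and pseudogene-rich genes are uncertain. The 92 spike-in rows had 0 counts and were left out. GENCODE M21 symbols matched 42548 of 43629 gene IDs, and the 1081 others held 0.111% of counts. Columns were joined to samples by library name.

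Tests used edgeR 4.0.16 under R 4.3.3 on counts scaled by TMM (quasi-likelihood, robust, two-sided, filterByExpr with a minimum count of 10 and total of 15) over 13445 genes, with Benjamini-Hochberg adjustment and a threshold of 0.05. The common biological coefficient of variation was 0.29. DESeq2 1.42.0 and limma 3.58.1 (voom) were alternatives, and the tests were tested on simulated data. There edgeR recovered 16 of 67 2-fold changes and 62 of 67 4-fold changes, with 13 false calls among 157. A 2-fold change was therefore often missed there. The changed genes were drawn from all tested genes above a low level and were not matched to the members. Recovery among members was not measured. DESeq2 recovered 29 and 65 of 67, with 34 false calls among 194, and voom recovered 16 and 60 of 67, with 13 among 155. CPM used TMM factors, and log2 CPM a prior count of 2. Length and read sharing used 1 principal mRNA per gene, and its 53-base windows were searched in all other GENCODE transcripts, since a genome was not used here. Library totals of 25119655 to 35373076 counts make a count of 3 worth 0.0851 to 0.114 CPM. No pair of libraries agreed within sampling noise (chi-square per gene 47.8 to 253). Floors and intervals cover counting error only, because PCR copies of one molecule cannot be told apart here.

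Named genes were Igf2bp1, the 8 members with the highest level per length, the 8 with the smallest p, the 5 with the largest log2 fold change in each direction, both genes of each paralog pair, untested members, and up to 4 genes with the smallest p of each other list. Members and lists were chosen with earlier results of these data known. Alternatives were other size factors, no scaling, scaling without members, other filters, a replicate block, other tools, a threshold of 0.01, each library left out, other denominators, and members with under 10% of windows shared. Some genes that the rule takes are left out of the text.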

Additional observations from a re-analysis of the deposited data

How the results depend on the processing

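No member was called under any of the 14 alternatives fitted over all genes. Over all genes edgeR called 3, and the count was 3 with RLE size factors, with library size only and with scaling without members, but 138 without a filter, 1 at a mean CPM of 5 or more, 18 with the replicate block, 82 in DESeq2, 1 in limma-voom, 1 at an adjusted p under 0.01 and 1 to 5 with a library left out. The replicate numbers were not shown to pair the libraries, since same-numbered deviations correlated at 0.193, -0.0936 and 0.275. With the replicate number as a block the members' median log2 fold change was -0.15, with 67 negative and 13 positive. With library size only the median over all genes moved to 0.067 and that over the members was -0.12, with 65 negative and 15 positive.

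With libraries left out, the members' median ran from -0.41 to 0.15, the share difference from -1.63 to 0.788 percentage points and the log2 ratio of large to small subunit counts from -0.0036 to 0.039 in its difference. With member medians in place of sums that difference was 0.098 with all libraries. Without shNT replicate 1 the shNT mean of that measure was -0.38, still below the shIGF2BP1 mean of -0.30. Only leaving out shNT replicate 1 turned the signs of the members' median, the share difference and the ratio of summed counts. It also turned 14 of the 28 tested named ribosomal protein genes, which include Rpl36al and Rps27rt from outside the symbol rule. The list medians ran from -0.39 to 0.16 for ribosomal proteins outside the rule and from -0.18 to 0.16 for TOP translation genes. Over members with under 10% of windows shared, the spread in shIGF2BP1 replicates 1 and 3 and in shNT replicate 2 was 0.167, 0.164 and 0.232. The cause of these changes was not tested.

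Log2 fold changes near 0 turned sign under single settings. Library size only gave Rpl8 0.031, Rpl17 0.074, Rpl22 0.048 and Rpl36al 0.037. The replicate block gave Rpl17 0.050, Rpl22 0.012, Rpl36al 0.0048 and Igf2bp1 -0.047. In limma-voom Rpl17 had 0.058, Rpl22 0.00044, Rpl36al 0.0035 and Igf2bp1 -0.24, and at a mean CPM of 5 or more Rpl17 had 0.0068. With libraries left out, values ran from -0.31 to 0.26 for Rps15, -0.21 to 0.23 for Rpl8, -0.31 to 0.20 for Rpl32, -0.31 to 0.049 for Rpl4, -0.57 to 0.024 for Rpl13a, -0.53 to 0.030 for Rps9, -0.63 to 0.038 for Rpl39, -0.039 to 0.36 for Rps27l, -0.076 to 0.28 for Rpl7l1, -0.19 to 0.60 for Rpl11, -0.26 to 0.45 for Rpl38, -0.29 to 0.39 for Rpl17, -0.40 to 0.11 for Rpl7, -0.53 to 0.11 for Rpl10, -0.26 to 0.29 for Rpl22, -0.20 to 0.26 for Rpl36al, -0.63 to 0.11 for Rpl36a, -0.63 to 0.21 for Rps4x and -1.24 to 0.76 for Igf2bp1.

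Small values set no limit here, since tested members averaged at least 33.8 CPM. The spread between libraries does, as does read placement among pseudogenes. The search for windows elsewhere in the genome was run on transcripts only.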
